A study of Mus musculus with 33 samples.

Results

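Corticosteroids released by the adrenal gland reach the brain and act there through a pair of nuclear receptors, the glucocorticoid receptor and the mineralocorticoid receptor, while an enzyme inside the cell regenerates active corticosterone from its inert form. Corticotropin-releasing hormone (CRH) starts the hormonal stress axis in the hypothalamus and also serves as a transmitter in other regions. In the nucleus accumbens it is known to act through its own receptors on dopamine release and appetitive behaviour. A secreted binding protein takes up CRH and limits how much of it reaches the receptors. The 7 genes of this system were looked up by symbol in the gene counts of mouse nucleus accumbens: the receptors Nr3c1 and Nr3c2, the enzyme Hsd11b1, the peptide Crh, the CRH receptors Crhr1 and Crhr2, and the binding protein Crhbp. All 7 were found among the 24034 genes of the count table, and all 7 passed the filter on low counts that left 14583 genes for testing.

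The tissue was bulk nucleus accumbens, a part of the ventral striatum, from C57BL/6J mice in 6 groups: 5 germ-free (GF) mice given morphine, 6 GF mice given saline, 5 antibiotic-treated (Abx) mice given morphine, 6 Abx mice given saline, 5 water-drinking (H2O) mice given morphine and 6 H2O mice given saline. Morphine was injected at 20 mg/kg per day for 7 days. GF mice were bred and kept in isolators at the institution. Abx and H2O mice were raised conventionally, were bought from a supplier at 7 to 9 weeks of age and drank their solution from 2 weeks before the injections onward; that of the Abx mice held vancomycin and bacitracin at 0.5 mg/mL each, neomycin at 2 mg/mL and pimaricin at 1.2 µg/mL. GF mice therefore differ from the others in where they were bred as well as in their microbiome. The labels give no age for GF mice, and their libraries other than GF saline replicate 1 were shallower, as given below. These differences cannot be told apart from that in microbiome. The labels name neither cage nor batch, so the p-values measure the spread between these libraries, each of which is taken as 1 mouse.

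Libraries held 4.86 M to 15.3 M reads counted to genes. The 10 GF libraries other than GF saline replicate 1 were the shallowest, with 4.86 M to 8.10 M, against 9.33 M to 15.3 M in the 22 libraries of conventional mice. GF saline replicate 1 held 15.3 M reads and stood apart in its markers: the summed level of 10 cortical glutamatergic genes was 550 CPM there, against 136 to 269 CPM in the other 5 GF saline libraries. Its depth, its cortical sum, its hypothalamic marker sum of 51.4 CPM and its Crh level of 4.30 CPM all lay within the ranges of the conventional libraries, and its label was kept. GF saline replicate 5 stood apart in other markers, with the lowest medium spiny neuron sum (3206 CPM), the highest hypothalamus sum (262 CPM) and the highest oligodendrocyte sum (10871 CPM) of the 33 libraries. It also held the highest Crh and the lowest Nr3c2 of its group. Medium spiny neuron genes, which mark the striatum, were high in every library, with 491 to 1473 CPM for Ppp1r1b and 92.3 to 340 CPM for Drd1a. CPM, the read count of a gene per M reads, were scaled here between libraries with TMM factors. A log2 fold change is given ± its standard error, taken as its absolute value over the square root of the test's F statistic. A gene is said to rise or fall where edgeR's quasi-likelihood test gave a Benjamini-Hochberg adjusted p below 0.05 over all tested genes. In bulk tissue, fewer cells of a type and less RNA per cell cannot be told apart.

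Per kilobase of the longest annotated transcript, Nr3c1 had the highest level of the 7 genes, with a mean of 13.6 CPM per kb over the 33 libraries, followed by Nr3c2 at 8.29, Crh at 7.41, Crhbp at 6.59, Crhr1 at 5.19, Hsd11b1 at 3.005 and Crhr2 at 1.04 CPM per kb. Nr3c1 stood above Nr3c2, and Hsd11b1 above Crhr2, in 33 of 33 libraries, and Crhr1 stood above Hsd11b1 in 31. The middle of the order did not hold library by library. Crh stood above Crhbp in 16 of 33 libraries, Nr3c2 above Crh in 23 and Crhbp above Crhr1 in 23. The members also differed in how far they varied. The highest library exceeded the lowest by 1.37 times for Nr3c1 and by 11.1 times for Crh, with 2.11 times for Crhr2, 2.18 for Crhr1, 2.45 for Nr3c2, 3.40 for Hsd11b1 and 4.82 for Crhbp between them. The lowest counts were 14 to 50 reads per library for Crhr2 and 17 to 96 for Hsd11b1, so that small differences in these genes were not detectable at this depth.

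**Figure D1:**
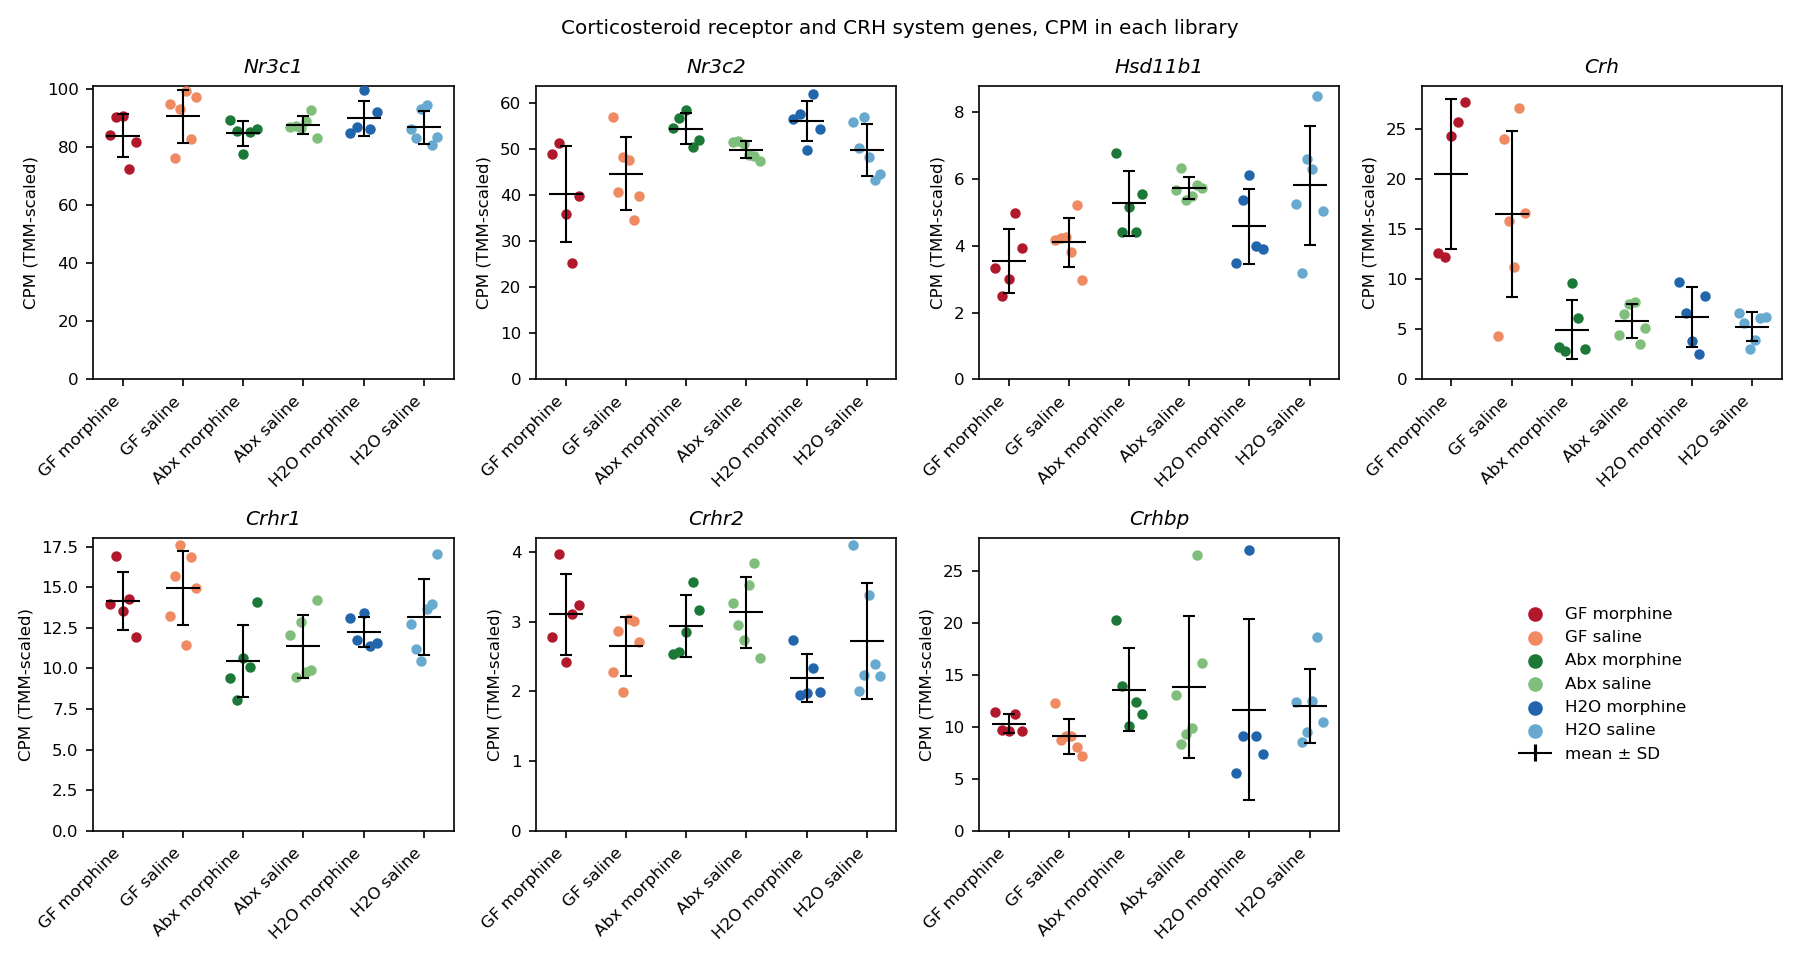
Level of each of the 7 genes in every library (points, TMM-scaled CPM on a linear axis from 0) by group, with the group mean and SD as black bars (n = 5 for morphine and 6 for saline groups). Crh lies above 11 CPM in 10 of 11 GF libraries and below 10 CPM in all 22 Abx and H2O libraries, while Nr3c1 lies between 72.6 and 99.5 CPM in all 33.

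Crh was higher in GF mice than in every conventional group given the same injections. It stood at 12.5, 12.2, 24.2, 25.6 and 27.7 CPM in the 5 GF morphine libraries, against 3.17, 2.80, 9.59, 6.14 and 3.03 CPM in the Abx morphine and 9.71, 6.58, 3.82, 2.49 and 8.30 CPM in the H2O morphine libraries. The GF morphine libraries did not overlap with either of these groups. In saline mice the lowest, median and highest values were 4.30, 16.2 and 27.1 CPM in GF, 3.51, 5.81 and 7.68 CPM in Abx, and 2.99, 5.86 and 6.64 CPM in H2O libraries. Here 5 of 6 GF libraries lay above all Abx and H2O saline libraries, and the exception was GF saline replicate 1 at 4.30 CPM.

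Group means of Crh were 20.5 ± 7.48 CPM in GF morphine and 16.5 ± 8.32 CPM in GF saline mice (SD, n = 5 and 6). Abx mice averaged 4.94 ± 2.93 CPM with morphine and 5.79 ± 1.70 with saline, and H2O mice 6.18 ± 3.01 with morphine and 5.24 ± 1.47 with saline. In edgeR's test Crh rose by a log2 fold change of 1.59 ± 0.36 in GF saline against H2O saline mice (3.02-fold, 95% interval of the log2 value 0.85 to 2.33, adjusted p = 0.00131). It rose by 1.46 ± 0.36 in GF saline against Abx saline mice (adjusted p = 0.00337). Among morphine mice it rose by 1.75 ± 0.38 in GF against H2O (adjusted p = 0.00766) and by 2.04 ± 0.39 in GF against Abx mice (4.11-fold, 95% interval 1.24 to 2.84, adjusted p = 0.000284). These comparisons share libraries, and in each of the 4 Crh had the largest fold change of the 7 members. Without GF saline replicate 1, the values in saline mice were 1.82 against H2O (adjusted p = 8.86e-05) and 1.68 against Abx (adjusted p = 0.000267). Without GF saline replicate 5 they were 1.40 (adjusted p = 0.00386) and 1.27 (adjusted p = 0.00922). Crh passed the threshold in all 4 comparisons whichever library was left out, with log2 fold changes from 1.27 to 2.43.

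Markers of some regions near the accumbens moved with Crh, and those of others did not. Across the 33 libraries log2 Crh correlated with the mean log2 level of the tested hypothalamus markers at r = 0.82 (0.89 for deviations from group means) and with that of the extended amygdala markers at r = 0.83 (0.75), while r was -0.79 (-0.63) with the cortical glutamatergic and -0.10 (0.20) with the septum markers. With the medium spiny neuron markers, which mark the striatum itself, r was -0.49 (-0.44), and with the pituitary markers 0.65 (0.13). These lists share libraries and depth with Crh, and r is a description. The summed level of the 13 hypothalamus genes was 112 to 183 CPM in GF morphine, 49.5 to 144 in Abx morphine and 46.2 to 163 in H2O morphine libraries. It was 51.4 to 262 CPM in GF saline, 48.2 to 106 in Abx saline and 55.8 to 90.8 in H2O saline libraries. GF saline replicate 1, low in Crh, was the GF library with the lowest sum. The sum of the 6 extended amygdala genes was 341 to 426 CPM in GF morphine, 196 to 311 in Abx morphine and 202 to 385 in H2O morphine libraries. In saline mice it was 245 to 387 CPM in GF, 215 to 334 in Abx and 221 to 374 in H2O libraries. Of these 6 genes, 3 rose and 0 fell in GF morphine against Abx morphine mice, and 1 and 0 against H2O morphine. In GF saline mice 2 rose and 1 fell against H2O saline, and 1 and 0 against Abx saline.

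Of the 13 hypothalamus genes 7 were tested, and 3 of them rose in GF saline against H2O saline mice: Gpr101, an orphan receptor (1.01), Irs4, an insulin receptor substrate (2.13), and the neuropeptide gene Gal (2.68). None of the 7 passed in edgeR in GF morphine against H2O morphine mice (list median 0.39), where Crh rose by 1.75. A part of the 13 genes stayed at or near 0 in all 6 groups. Their highest values were 0.803 CPM for Otp, 0.401 for Hcrt, 0.401 for Hmx2, 0.258 for Sim1 and 0.171 CPM for Pmch. Of hypothalamic peptide genes outside this list, Oxt reached 219 and Avp 339 reads in a library. Gpr101 and Lhx8, which are also used in forebrain regions outside the hypothalamus, had medians of 79.5 and 28.5 CPM in GF morphine libraries, against 45.6 and 20.6 CPM in H2O morphine libraries. The part of neighbouring tissue in the values of Crh was not tested.

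A further fit held the mean levels of the hypothalamus and cortical glutamatergic lists as covariates, and not that of the extended amygdala list. The mean log2 level of the cortical list was 1.01 to 1.31 in GF morphine and 2.85 to 5.04 in Abx morphine libraries. Group and list therefore cannot be told apart in that comparison. With these covariates the difference of Crh was smaller and passed the threshold. It was 0.74 in GF saline against H2O saline (adjusted p = 0.00469), 0.69 in GF saline against Abx saline (adjusted p = 0.0163), 1.39 in GF morphine against H2O morphine (adjusted p = 0.000161) and 1.38 in GF morphine against Abx morphine mice (adjusted p = 0.000374). The genes whose log2 level followed that of Crh most closely across the 33 libraries, out of 12446 ranked, were Lhx6 (r = 0.91, and 0.84 for deviations from group means), Dgkk (0.91 and 0.91) and Npy2r (0.91 and 0.84).

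**Figure D2:**
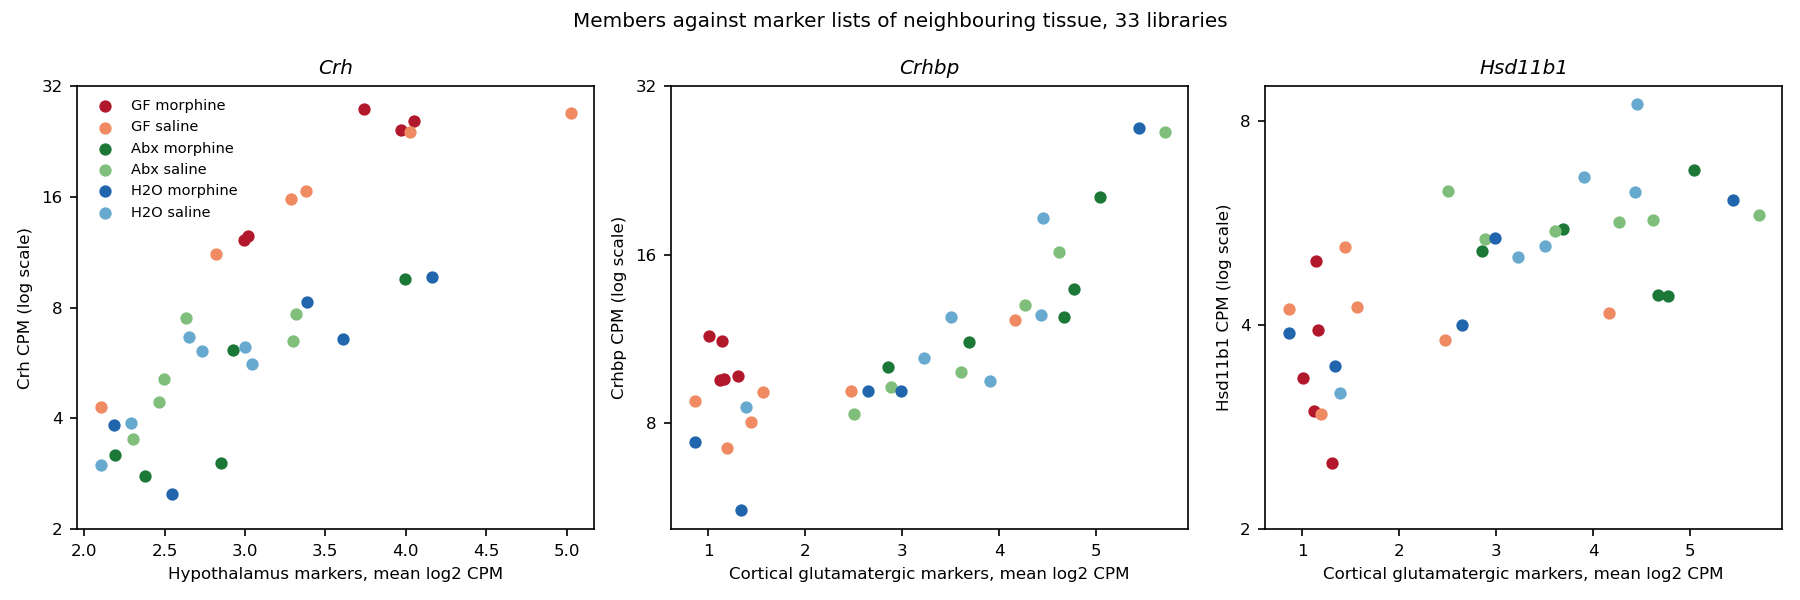
Level of Crh, Crhbp and Hsd11b1 (CPM, log axis) against the mean log2 CPM of a list of marker genes of neighbouring tissue, 1 point per library, coloured by group. Crh climbs with the hypothalamus markers (r = 0.82); Crhbp climbs with the cortical glutamatergic markers to 26.97 CPM in 1 H2O morphine library.

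The CRH receptors moved less than the peptide. Crhr1, a Gs-coupled receptor that binds CRH with high affinity, stood at 13.9, 16.9, 13.5, 14.3 and 11.96 CPM in GF morphine libraries. It stood at 9.42, 8.07, 10.6, 10.1 and 14.1 CPM in Abx morphine and at 13.1, 11.7, 13.4, 11.4 and 11.5 CPM in H2O morphine libraries. Only 2 of the 5 GF libraries lay above all Abx libraries, since Abx morphine replicate 5 reached into the GF range. In saline mice the lowest, median and highest values were 11.4, 15.3 and 17.6 CPM in GF, 9.44, 10.97 and 14.2 CPM in Abx, and 10.5, 13.2 and 17.0 CPM in H2O libraries.

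Crhr1 rose in GF against Abx mice, by 0.38 ± 0.13 with saline (adjusted p = 0.0281, 4 of 6 GF libraries above the Abx range) and by 0.43 ± 0.14 with morphine (adjusted p = 0.0243). Against H2O mice its differences did not pass the threshold, at 0.17 ± 0.13 with saline (95% interval -0.09 to 0.44, adjusted p = 0.317) and 0.21 ± 0.14 with morphine (-0.08 to 0.50, adjusted p = 0.376). With the marker lists as covariates the values against Abx mice were 0.37 (adjusted p = 0.0716) and 0.45 (adjusted p = 0.0905). In morphine mice the cortical list did not overlap between GF and Abx libraries, so group and list cannot be told apart there. Without GF saline replicate 1 the value in saline mice was 0.42 (adjusted p = 0.0213). The call in saline mice ended when any 1 of GF saline replicates 3, 5 and 6 or Abx saline replicates 2, 4 and 5 was left out (adjusted p 0.0514 to 0.0815), and that in morphine mice without GF morphine replicate 2 or Abx morphine replicate 1 or 2 (0.0585 to 0.0795). Lcat (r = 0.81), Slfn5 (0.80) and Rassf4 (0.79) followed Crhr1 most closely over the 33 libraries. Among the marker lists, r was -0.67 with the ependymal list.

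Crhr2, the receptor with high affinity for urocortins, was the lowest of the members and passed the threshold in no comparison. It stood at 2.79, 3.97, 2.42, 3.11 and 3.25 CPM in GF morphine, 2.54, 2.56, 2.85, 3.57 and 3.17 in Abx morphine and 2.74, 1.94, 1.98, 2.34 and 1.99 CPM in H2O morphine libraries. Of the GF morphine libraries 4 of 5 lay above the H2O morphine range, and 3 of 5 Abx morphine libraries did. The differences were 0.50 ± 0.19 for GF (95% interval 0.11 to 0.90, adjusted p = 0.106) and 0.43 ± 0.18 for Abx mice (0.06 to 0.80, adjusted p = 0.121); in limma voom with sample quality weights the Abx value was 0.46 with an adjusted p of 0.0449. In saline mice the means were 2.65 ± 0.427 CPM in GF, 3.14 ± 0.510 in Abx and 2.73 ± 0.829 in H2O libraries (SD, n = 6 each). The ligand genes of this receptor were hardly read: Ucn had no read in 21 of 33 libraries and at most 8 in 1 library, Ucn2 at most 3, and Ucn3 at most 12 with no read in 3 libraries.

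Crhbp, whose protein binds CRH and the urocortins, passed in no comparison and varied between libraries of the same group. It stood at 11.4, 9.71, 9.55, 11.2 and 9.57 CPM in GF morphine, 20.3, 13.9, 10.1, 12.4 and 11.2 in Abx morphine and 5.59, 9.12, 26.97, 9.14 and 7.39 CPM in H2O morphine libraries. In saline mice it ran over 7.21, 8.91 and 12.2 CPM (lowest, median and highest) in GF, 8.29, 11.4 and 26.5 in Abx and 8.54, 11.4 and 18.6 CPM in H2O libraries. The SD was 0.938 CPM in GF morphine and 8.69 CPM in H2O morphine libraries around means of 10.3 and 11.6 CPM. The log2 fold changes were -0.38 ± 0.30 in GF saline against H2O saline (adjusted p = 0.340) and -0.58 ± 0.30 against Abx saline mice (adjusted p = 0.145).

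The cortical glutamatergic list moved with Crhbp, at r = 0.79 over the 33 libraries and 0.86 for deviations from group means, as did the interneuron list at 0.81 and 0.79. The summed level of the 10 cortical genes was 157 to 190 CPM in GF morphine, 136 to 550 in GF saline, 297 to 1171 in Abx morphine, 230 to 1747 in Abx saline, 133 to 1378 in H2O morphine and 195 to 855 CPM in H2O saline libraries. The library with 26.97 CPM of Crhbp, H2O morphine replicate 4, also held the highest cortical sum of its group, 1378 CPM. With the marker lists as covariates, Crhbp was 0.84 higher in GF morphine than in Abx morphine mice (adjusted p = 0.00654). Without covariates the value was -0.39 ± 0.33 (adjusted p = 0.385). The mean log2 level of the cortical list was 1.01 to 1.31 in GF morphine and 2.85 to 5.04 in Abx morphine libraries. The value with covariates is thus extrapolated, and group and list cannot be told apart there. Ndrg3 (r = 0.93), Fam163b (0.92) and Cnih3 (0.91) followed Crhbp most closely. The ratio of Crh to Crhbp counts averaged 2.02 ± 0.796 in GF morphine and 1.95 ± 1.09 in GF saline libraries (SD). Abx libraries averaged 0.416 ± 0.328 with morphine and 0.526 ± 0.297 with saline, and H2O libraries 0.799 ± 0.652 with morphine and 0.457 ± 0.158 with saline.

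Among the steroid members, Nr3c1, the glucocorticoid receptor, was the steadiest gene of the 7. It averaged 83.9 ± 7.40 CPM in the 5 GF morphine and 90.5 ± 9.11 CPM in the 6 GF saline libraries (SD). Abx libraries averaged 84.7 ± 4.29 CPM with morphine and 87.6 ± 3.13 CPM with saline, and H2O libraries 89.9 ± 6.08 CPM with morphine and 86.8 ± 5.63 CPM with saline. All groups overlapped, and its biological coefficient of variation was 0.0697 in the fit, where the common value was 0.128. The difference was 0.06 ± 0.06 in GF saline against H2O saline (95% interval -0.06 to 0.19, adjusted p = 0.445) and -0.10 ± 0.07 in GF morphine against H2O morphine mice (-0.24 to 0.04, adjusted p = 0.377). With TMM, RLE or upper-quartile factors the difference of GF saline against H2O saline mice was 0.02 to 0.06 and did not pass. After a trend on GC content and length was taken out of each library, Nr3c1 fell in GF saline mice, with a log2 fold change of -0.25 against H2O saline (adjusted p = 0.00110) and -0.23 against Abx saline mice (adjusted p = 0.00354). Over 14475 genes the log2 fold change correlated with GC content at a Spearman rho of -0.51 in both comparisons. With length, rho was 0.34 against H2O saline and 0.26 against Abx saline mice. The cause of the change in Nr3c1 was not tested. Itgav (r = 0.78), Ulk2 (0.77) and Rock2 (0.75) followed Nr3c1 most closely.

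Nr3c2, the mineralocorticoid receptor, which binds corticosterone with higher affinity than the glucocorticoid receptor does, was lower in GF mice given morphine. It stood at 48.8, 51.2, 35.9, 25.2 and 39.8 CPM in GF morphine libraries, against 54.4, 56.8, 58.3, 50.4 and 51.9 CPM in Abx morphine and 56.5, 57.6, 49.8, 61.8 and 54.4 CPM in H2O morphine libraries. Of the 5 GF libraries 4 lay below all Abx and 4 below all H2O morphine libraries. The lowest, GF morphine replicate 5, had the highest share of reads in no gene of the 33 libraries. That share was 35.4%, against 20.6% to 26.4% in conventional libraries. This library also held the lowest Nr3c1 of the 33 (72.6 CPM) and the lowest medium spiny neuron sum of its group (5142 CPM). In saline mice the lowest, median and highest values were 34.5, 44.1 and 57.0 CPM in GF, 47.3, 49.9 and 51.6 in Abx and 43.2, 49.2 and 56.9 CPM in H2O libraries, and GF saline replicate 1, at 57.0 CPM, was the highest of all of these. Together, 6 of the 11 GF libraries lay below the lowest of the 22 conventional ones (43.2 CPM).

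Nr3c2 fell in GF morphine mice, with a log2 fold change of -0.48 ± 0.12 against H2O morphine (0.72-fold, adjusted p = 0.0209) and -0.43 ± 0.12 against Abx morphine mice (adjusted p = 0.00949). The call against H2O ended without GF morphine replicate 3 or 5 or H2O morphine replicate 3 or 5 (adjusted p 0.0591 to 0.0797), and in a fit limited to these groups (-0.48, adjusted p = 0.106). That against Abx held whichever library was left out. With saline, the differences of GF mice did not pass, at -0.15 ± 0.11 against H2O (95% interval -0.38 to 0.08, adjusted p = 0.326) and -0.15 ± 0.11 against Abx (adjusted p = 0.347). Without GF saline replicate 1 they were -0.24 against H2O (adjusted p = 0.0902) and -0.24 against Abx (adjusted p = 0.0979), and without GF saline replicate 5 they were -0.09 against both (adjusted p = 0.580 and 0.590). With GC content and length taken out, the value against H2O was -0.28 with an adjusted p of 0.0398. The effects of GF status in morphine and in saline mice were not shown to differ: the morphine response in GF minus that in H2O mice was -0.33 ± 0.17 (95% interval -0.67 to 0.01, adjusted p = 0.330). The medium spiny neuron list moved with Nr3c2 at r = 0.63 over the 33 libraries (0.68 for deviations from group means), and its sum of 15 genes was 5142 to 8264 CPM in GF morphine, 5998 to 7722 in Abx morphine and 5323 to 8688 CPM in H2O morphine libraries. The part of these cells in the result was not tested. Snrnp200 (r = 0.91), Wwc2 (0.90) and Tbc1d20 (0.89) followed Nr3c2 most closely. An antisense RNA gene, Gm10649, overlaps exonic sequence of Nr3c2 in GENCODE, and without a stated strand setting its reads cannot be told apart from those of Nr3c2 there.

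The counts of the receptors gave a mean ratio of Nr3c1 to Nr3c2 of 2.19 ± 0.502 in GF morphine and 2.07 ± 0.306 in GF saline libraries. Abx libraries gave 1.57 ± 0.149 with morphine and 1.76 ± 0.0925 with saline, and H2O libraries 1.62 ± 0.238 with morphine and 1.76 ± 0.165 with saline (SD). The range in GF saline libraries, 1.66 to 2.44, overlapped that in H2O saline libraries, 1.54 to 1.96, and so did that in GF morphine, 1.73 to 2.88, with that in H2O morphine libraries, 1.39 to 2.00; the ratio was not tested.

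Hsd11b1, the reductase that regenerates corticosterone inside cells, was lower in GF mice, at low counts. It stood at 3.34, 2.50, 2.99, 4.97 and 3.93 CPM in GF morphine libraries, against 6.79, 4.43, 5.15, 4.43 and 5.56 CPM in Abx morphine and 3.48, 5.38, 6.13, 4.00 and 3.90 CPM in H2O morphine libraries. In saline mice the lowest, median and highest values were 2.96, 4.19 and 5.22 CPM in GF, 5.37, 5.71 and 6.32 in Abx and 3.18, 5.77 and 8.49 CPM in H2O libraries. All 6 GF saline libraries lay below all Abx saline libraries, where the spread was narrow, but only 1 lay below all H2O saline libraries. Hsd11b1 fell in 3 comparisons. Its log2 fold change was -0.51 ± 0.18 in GF saline against H2O saline (adjusted p = 0.0323), -0.50 ± 0.18 in GF saline against Abx saline (adjusted p = 0.0429) and -0.57 ± 0.21 in GF morphine against Abx morphine mice (adjusted p = 0.0381). Without GF saline replicate 1 the values in saline mice were -0.52 against H2O (adjusted p = 0.0388) and -0.51 against Abx (adjusted p = 0.0487). Against H2O morphine mice, GF morphine mice differed by -0.39 ± 0.21 (95% interval -0.82 to 0.04, adjusted p = 0.258).

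These calls lay near the threshold. The call against H2O saline ended without GF saline replicate 4 or 6 or H2O saline replicate 5, 6 or 8 (adjusted p 0.0555 to 0.122). It also ended in limma voom (-0.48, adjusted p = 0.0775), in a fit limited to these groups (-0.51, adjusted p = 0.0817) and with a replicate block (adjusted p = 0.176). That against Abx saline ended in limma voom (-0.55, adjusted p = 0.0571) and without a filter on low counts (-0.50, adjusted p = 0.0584). The call against Abx saline also ended for 9 of 12 libraries left out, GF saline replicates 2, 3, 4 and 6 and Abx saline replicates 1, 2, 4, 5 and 6 (0.0523 to 0.113), and that against Abx morphine for 6 of 10, GF morphine replicates 1, 2 and 3 and Abx morphine replicates 1, 3 and 5 (0.0540 to 0.113). Cortical glutamatergic markers moved with Hsd11b1 at r = 0.70 over the 33 libraries (0.47 for deviations from group means). With the marker lists as covariates none of the 3 passed, at -0.35 (adjusted p = 0.104), -0.24 (adjusted p = 0.330) and -0.06 (adjusted p = 0.872). For the last, GF morphine against Abx morphine, the cortical list did not overlap between the groups, so group and list cannot be told apart. Clec2l (r = 0.80), Got2 (0.80) and Frzb (0.78) followed Hsd11b1 most closely.

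Counted over the 7 members, 1 rose (Crh) and 1 fell (Hsd11b1) in GF saline against H2O saline mice, where 33% of all tested genes, 4807 of 14583, passed the same threshold. In GF saline against Abx saline mice 2 rose (Crh and Crhr1) and 1 fell (Hsd11b1), against 27.3% of all genes. In GF morphine against H2O morphine mice 1 rose (Crh) and 1 fell (Nr3c2), against 5.86% of all genes, and in GF morphine against Abx morphine mice 2 rose (Crh and Crhr1) and 2 fell (Nr3c2 and Hsd11b1), against 28.1%. The share of members called was thus near that of all genes in GF saline against H2O saline mice. The median log2 fold change of the 7 genes was -0.06 there, where that of all tested genes was 0.01.

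Antibiotics alone moved none of the 7 past the threshold in saline mice, in edgeR, DESeq2 or limma voom. The count at an unadjusted p below 0.05 was also 0, and 0.117% of all genes passed in edgeR. The 95% interval of the difference in Abx saline against H2O saline mice was -0.64 to 0.90 for Crh, -0.48 to 0.05 for Crhr1, -0.36 to 0.34 for Hsd11b1, -0.23 to 0.23 for Nr3c2 and -0.11 to 0.14 for Nr3c1. Among morphine mice Abx against H2O also gave a count of 0 members in edgeR and DESeq2, with 1 at an unadjusted p below 0.05 and 1 in limma voom (Crhr2 in both), where 10.3% of all genes passed.

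**Figure D3:**
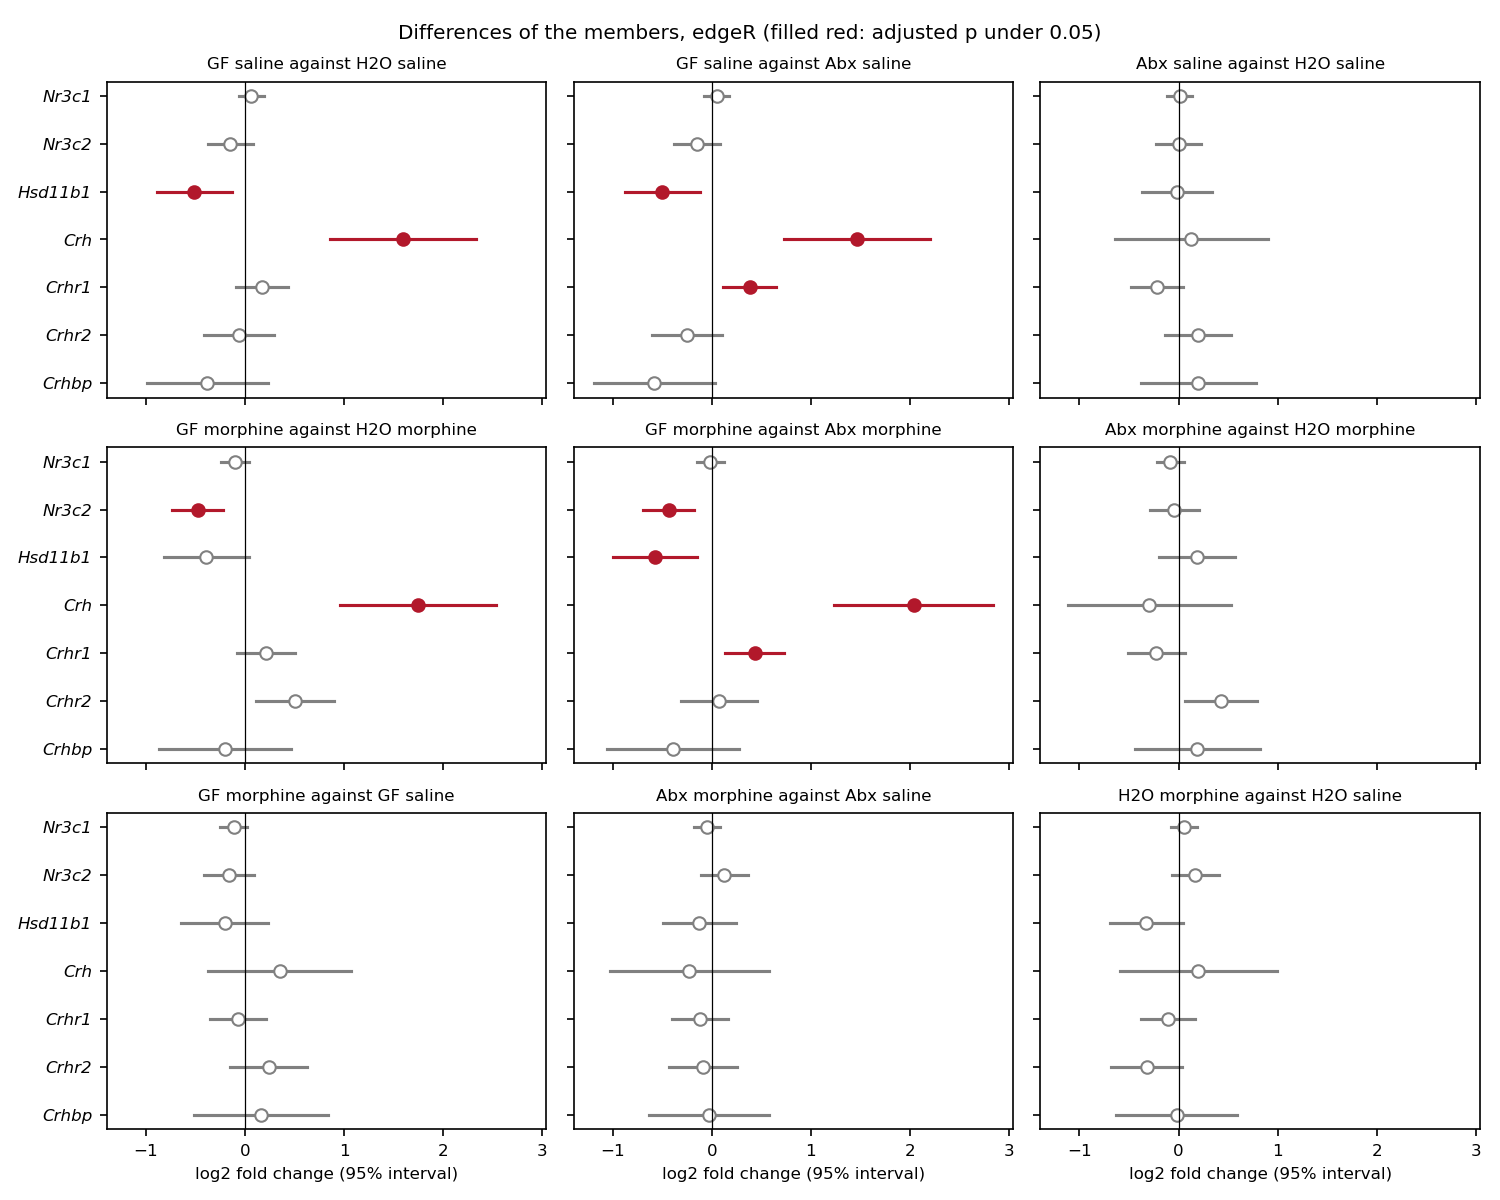
Log2 fold change (points) and its 95% interval (lines) of the 7 genes in 9 comparisons, from edgeR; filled red points passed an adjusted p of 0.05. Crh lies to the right of 0 in the 4 comparisons of GF with Abx or H2O mice, at 1.46 to 2.04, and no gene is filled in the 3 comparisons of morphine with saline.

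Morphine was compared with saline within each microbiome state, which asks whether 7 days of the drug shift these genes and whether the state alters that shift. None of the 7 passed in GF, Abx or H2O mice in edgeR, and none at an unadjusted p below 0.05, in DESeq2 or in limma voom. With GC content and length taken out, Nr3c1 fell in Abx morphine against Abx saline mice (-0.18, adjusted p = 0.0340), where its value was -0.05 ± 0.06 without. The shares of all genes that passed in edgeR were 0.00686% in GF, 5.43% in Abx and 0% in H2O mice; in H2O mice 2220 genes had an unadjusted p below 0.05, and DESeq2 called 329 genes and limma voom 1323. The interval of Crh was the widest of the 7 in each state, at -0.37 to 1.08 in GF, -1.03 to 0.58 in Abx and -0.59 to 0.99 in H2O mice. The point estimates of the rises of Crh in GF mice, at 1.46 to 2.04, lay above these intervals. The interval of the rise in GF saline against Abx saline mice, 0.73 to 2.20, overlapped those in GF and H2O mice. So did 0.85 to 2.33 in GF saline against H2O saline and 0.96 to 2.54 in GF morphine against H2O morphine mice. Only that in GF morphine against Abx morphine mice, 1.24 to 2.84, did not. These effects were not tested against each other. Nr3c1 had the narrowest, at -0.25 to 0.02 in GF, -0.18 to 0.08 in Abx and -0.08 to 0.18 in H2O mice. Averaged over the 3 states, the difference was -0.22 ± 0.11 for Hsd11b1 (adjusted p = 0.328), 0.11 ± 0.22 for Crh (adjusted p = 0.865) and -0.04 ± 0.04 for Nr3c1 (adjusted p = 0.676). In this average none of the 7 passed with any of the 3 tools or at an unadjusted p below 0.05, where 0.960% of all genes passed in edgeR.

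Differences between the morphine responses were tested as interactions. None of the 7 passed in Abx minus H2O, GF minus H2O or GF minus Abx mice with edgeR, DESeq2 or limma voom, where 0.110%, 0% and 2.21% of all genes passed in edgeR. For GF minus H2O, 2321 genes had an unadjusted p below 0.05, and DESeq2 called 235 genes and limma voom 51. The count at an unadjusted p below 0.05 was 1, 0 and 0 in GF minus H2O, Abx minus H2O and GF minus Abx. The 1 was Crhr2, with 3.11 ± 0.578 CPM in GF morphine against 2.65 ± 0.427 in GF saline mice and 2.20 ± 0.344 in H2O morphine against 2.73 ± 0.829 in H2O saline mice, a difference of the responses of 0.56 ± 0.26 (adjusted p = 0.278).

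Genes that work around these members were taken as 5 lists. For reading their counts, 18.0% of all tested genes rose and 14.9% fell in GF saline against H2O saline mice, 14.6% and 12.8% in GF saline against Abx saline, 3.21% and 2.65% in GF morphine against H2O morphine, 14.7% and 13.4% in GF morphine against Abx morphine and 4.57% and 5.76% in Abx morphine against H2O morphine mice. The median log2 fold change of all tested genes lay between -0.02 and 0.01 in every comparison. Of 14 genes of steroid supply 8 were tested. In GF saline against H2O saline mice 2 fell and 0 rose, with a list median of -0.33: Abcb1a, an efflux pump of the blood-brain barrier that transports glucocorticoids (-0.34 ± 0.09, adjusted p = 0.00614), and H6pd, which supplies the cofactor of the Hsd11b1 reaction (-0.32 ± 0.12, adjusted p = 0.0360). Of 10 endothelial markers 6 fell and 0 rose in this comparison (list median -0.31), and their summed level was 214 to 347 CPM in GF saline and 344 to 375 CPM in H2O saline libraries; their part in the value of Abcb1a was not tested. H6pd averaged 9.17 ± 1.91 CPM in GF morphine and 9.22 ± 1.92 in GF saline, 11.4 ± 1.37 in Abx morphine, 12.2 ± 0.820 in Abx saline, 12.8 ± 1.27 in H2O morphine and 11.8 ± 1.40 CPM in H2O saline libraries (SD). It also fell in GF saline against Abx saline (-0.38 ± 0.12, adjusted p = 0.0191) and in GF morphine against H2O morphine mice (-0.49 ± 0.13, adjusted p = 0.0241). In GF morphine against Abx morphine mice it did not pass (-0.32, adjusted p = 0.0672), and the pump gene Abcb1b fell (-0.80 ± 0.21, adjusted p = 0.00432). Hsd11b2, which inactivates corticosterone, had 0 to 3 reads per library and was not tested.

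Of 13 further peptide and receptor genes of the stress axis 7 were tested, and in GF saline against H2O saline mice 2 rose and 0 fell, with a list median of 0.48. Avpr1a, a vasopressin receptor, had 3.14 ± 2.18 CPM in GF saline, against 0.589 ± 0.488 CPM in H2O saline libraries (2.24 ± 0.57, adjusted p = 0.00341), and Mc4r, a melanocortin receptor, rose by 0.93 ± 0.24 (adjusted p = 0.00368). In GF morphine against Abx morphine mice 3 rose and 0 fell: Avpr1a (2.49 ± 0.60), Pomc, the precursor of ACTH (0.83 ± 0.32, adjusted p = 0.0485), and Mc4r (0.70 ± 0.26). In GF morphine against H2O morphine mice none of the 7 passed in edgeR (list median -0.02), and in Abx morphine against H2O morphine mice 1 fell (list median -0.32). Of 9 listed pituitary genes 3 were tested, and 2 rose and 1 fell in GF saline against H2O saline mice. The counts were the same in GF against Abx mice with saline and with morphine, and 2 and 0 in GF morphine against H2O morphine. The sum of the 9 genes was 225 to 286 CPM in GF morphine and 297 to 397 CPM in Abx morphine libraries. Among them, Gh reached 33.5 CPM in GF morphine and 55.0 CPM in GF saline libraries, against at most 2.32 CPM in conventional ones. GF saline replicate 1 had no read of Gh. The part of pituitary tissue in the values of Pomc was not tested. The peptide gene Oxt passed in GF saline against Abx saline mice (4.54 ± 1.69, adjusted p = 0.0435) with 27.5 CPM in 1 GF saline library and a median of 0.266 CPM in that group; it was not refitted without that library. The vasopressin gene Avp did not pass the filter on low counts. Its median was 0.447 CPM in GF saline and 0.230 CPM in H2O saline libraries, with 7.23 CPM in 1 GF saline and 32.8 CPM in 1 H2O saline library.

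Of 4 tested among 5 listed genes of other steroid receptors and their orphan relatives, 3 rose and 1 fell in GF saline against H2O saline mice (list median 0.52). Esr1, an estrogen receptor (1.15 ± 0.45, adjusted p = 0.0482), Esrrg, an orphan receptor (0.63 ± 0.21, adjusted p = 0.0211), and Pgr, the progesterone receptor (0.41 ± 0.09), rose, and Esrra, a further orphan receptor, fell (-0.29 ± 0.06). In morphine mice only Esrra of the 4 passed, lower in GF than in H2O (-0.21 ± 0.06) and in GF than in Abx mice (-0.32 ± 0.06).

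Chaperones and coregulators hold the receptors in a state that can bind the hormone or carry their signal to transcription. Of 23 tested, 12 rose and 2 fell in GF saline against H2O saline mice (list median 0.23), 8 and 2 in GF saline against Abx saline (0.14), 5 and 0 in GF morphine against H2O morphine (-0.0028) and 10 and 3 in GF morphine against Abx morphine mice (0.14). The co-chaperone gene Dnaja1 rose in all 4 of these comparisons, by 0.49 to 0.58, while Bag1, a further co-chaperone gene, fell in GF saline against H2O saline mice (-0.32 ± 0.05, adjusted p = 3.34e-05). Nr2f2, a nuclear receptor that acts as a coregulator, rose by 0.84 ± 0.26 and Nrip1, a corepressor gene, by 0.47 ± 0.16 in the same comparison. Nr2f2 is also on the list of extended amygdala markers, and the part of neighbouring tissue in its value was not tested.

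Of 22 tested genes known to respond to glucocorticoids, 15 rose and 0 fell in GF saline against H2O saline mice (list median 0.38). In GF morphine against H2O morphine 11 rose and 0 fell (0.36), and in Abx morphine against H2O morphine 14 and 0 (0.51). In GF morphine against Abx morphine mice 1 rose and 9 fell (-0.22), and in GF saline against Abx saline 5 and 0 (0.19). Antibiotics alone gave 3 rising and 0 falling in Abx saline against H2O saline mice (0.32), where 0.117% of all tested genes passed. In Abx morphine against Abx saline mice 6 rose and 0 fell (0.33), where 5.43% passed. None passed in H2O morphine against H2O saline or GF morphine against GF saline mice. Fkbp5, which belongs to this list and to the chaperones and restrains the glucocorticoid receptor, averaged 73.7 ± 9.22 CPM in GF morphine, 80.2 ± 14.6 in GF saline, 134 ± 22.1 in Abx morphine, 81.4 ± 13.9 in Abx saline, 62.2 ± 6.67 in H2O morphine and 64.8 ± 3.11 CPM in H2O saline libraries. It rose in Abx morphine against Abx saline mice by 0.72 ± 0.11 (adjusted p = 0.000328), a comparison in which Nr3c1 (-0.05 ± 0.06) and Nr3c2 (0.13 ± 0.11) did not pass, though Nr3c1 did with GC content and length taken out (-0.18, adjusted p = 0.0340). Sgk1, a kinase gene, and Tsc22d3, which codes for a leucine zipper protein, rose in GF saline against H2O saline mice by 1.27 ± 0.17 and 1.34 ± 0.14, where Nr3c1 differed by 0.06 ± 0.06.

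**Figure D4:**
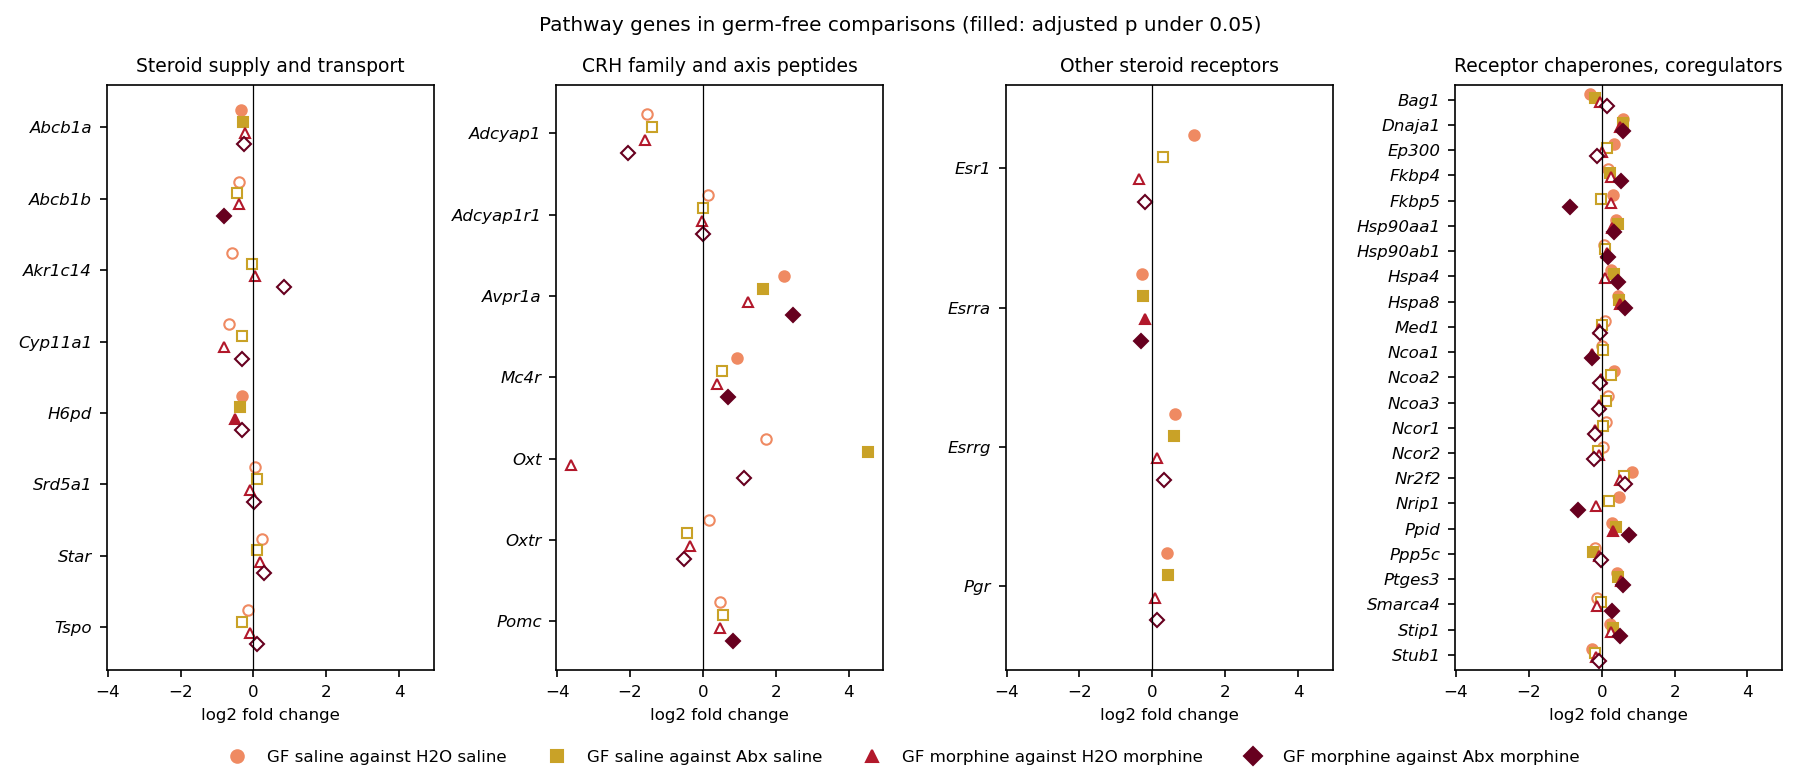
Log2 fold change of the tested genes of 4 lists around the corticosteroid and CRH members in the 4 comparisons of GF mice with Abx or H2O mice; filled symbols passed an adjusted p of 0.05 in edgeR. H6pd lies left of 0 in all 4, filled in 3, Avpr1a right of 0 in all 4, filled in 3, and most chaperone genes lie within 1 log2 unit of 0.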

How the data were processed

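Bulk RNA of nucleus accumbens was sequenced from amplified, sheared cDNA, per the labels' protocols. The authors deposited whole-number read counts per gene; the submitters' processing notes name FastQC, STAR 2.4.0 and edgeR, while build, gene models and strandedness of the counting were not given in the sources used here. From the 24066 entries of the count table, 5 tallies of reads in no gene (19.3% to 35.4% of a library) and 27 names turned into dates were left out, and a deposited normalised table was not used. Genes were kept with filterByExpr at a minimum count of 10 and fitted in edgeR 4.0.16 with TMM factors and 1 mean per group over all 33 libraries (27 residual degrees of freedom, from which the 95% intervals were taken). Tests were two-sided quasi-likelihood tests with Benjamini-Hochberg adjustment over 14583 genes; DESeq2 1.42.0, limma 3.58.1 and R 4.3.3 served the alternatives, and the test was tried on simulated data. Lengths, GC content and overlaps came from GENCODE on GRCm38, which may differ from the authors' annotation. The 7 members, the gene lists, the markers and the tests were chosen with earlier results of these data known, so a list's counts are descriptions. For 1 listed gene the values are not reported here, and it was left out of its list. Named genes were the members, for each the 3 genes most like it, in each list at most 3 per direction with the largest change past the threshold, and a few set by name. Counting error alone limits Crhr2 and Hsd11b1 most. No pair of libraries of a group agreed within sampling noise (chi-square per degree of freedom 3.10 to 37.0 over 75 pairs).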

Additional observations from a re-analysis of the deposited data

Results flagged for a closer look

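Crhbp stood at 26.97 CPM in H2O morphine replicate 4, far from the other 4 libraries of its group, which lay between 5.59 and 9.14 CPM. The gap to the nearest library was 0.834 of the whole range of the group. This was 1 of 42 combinations of gene and group examined, and chance alone marks about 1 group in 20 by this measure. The same library held 1378 CPM of the cortical glutamatergic markers, against 133 to 291 CPM in the other 4; the part of these markers in the Crhbp value was not tested.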

How the results depend on the processing

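Crh kept its 4 calls in all 9 other settings and with every library left out. Of 7 members, 2 passed in GF saline against H2O saline mice. Limma voom, a fit limited to those groups, a replicate block and the neighbouring-tissue covariates each gave 1 (Crh). GC content and length offsets gave 4, and leaving out 1 library gave 1 to 2. Of all genes 4807 passed there, with 5515 in limma voom and 3765 in the fit limited to those groups. The replicate block gave 4141 genes, the covariates 4866 and the offsets 2506. In GF saline against Abx saline mice 3 passed, 1 with the covariates and 1 to 3 with a library left out. Of all genes 3988 passed in that comparison, and 3238 with the covariates. In GF morphine against H2O morphine mice 2 passed, 1 in the fit of only the groups compared (Crh; Nr3c2 missed) and 1 to 2 with a library left out; in GF morphine against Abx morphine mice 4 passed, and 2 to 4 with a library left out. Counts of 0 became 1 for Abx morphine against Abx saline with the offsets (Nr3c1, -0.18) and for Abx morphine against H2O morphine in limma voom (Crhr2). Reversed values of Nr3c1 with the offsets were -0.25 in GF saline against H2O saline and -0.23 against Abx saline mice. That of Crhbp with the covariates was 0.84 in GF morphine against Abx morphine mice, where the cortical list did not overlap between the groups. The cause of these reversals was not tested. Of 99 values of the 11 called results in other settings 12 missed the threshold, and 33 of 120 with a library left out. With a replicate block Hsd11b1 was -0.37 in GF saline against H2O saline mice (adjusted p = 0.176). Deviations of same-numbered libraries from their group means correlated at a mean r of -0.00067 over 66 pairs (-0.47 to 0.46, 20 over 0.1). Deviations sum to about 0 within a group and differently numbered pairs were not compared. This mean therefore cannot settle whether the number marks a pairing. The fit of only the groups compared was not run for the average morphine effect. Over all genes, calls in GF saline against H2O saline mice numbered 4807, and 2506 with the offsets; in GF saline against Abx saline mice 3988, 2130 with the offsets and 2311 with only the groups compared; in GF morphine against H2O morphine mice 855 and 328 with only the groups compared; in GF morphine against Abx morphine mice 4091 and 2723 with the covariates; in Abx morphine against Abx saline mice 792 and up to 2438 in limma voom; in Abx morphine against H2O morphine mice 1507 and up to 3548 in limma voom; in Abx saline against H2O saline mice 17 and 4 to 180. Those of the average morphine effect numbered 140 and 4 to 935, of the morphine response in GF minus Abx mice 322 and 43 to 1213, and in Abx minus H2O mice 16 and 9 to 170.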
